A study of Homo sapiens with 10 samples.

Results

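RBM proteins and hnRNPs are 2 large name groups of RNA-binding proteins, and their transcripts were followed here in PANC-1 cells given LY or DMSO. The 70 genes are 44 whose symbol begins with RBM and a digit, with RBMX or with RBMS, and 26 whose symbol begins with HNRNP, out of 20263 genes in the table. RBM28 and RBMS3 were left out by the rule that chose them, as were antisense genes and pseudogenes. PANC-1 is an established human cell line derived from pancreatic cancer. Cells of the LY group received LY, read as lycorine from the series title, at 20 µM for 24 h, and cells of the other group received DMSO. Lycorine is an Amaryllidaceae alkaloid known to inhibit protein synthesis on ribosomes. Each group has 5 libraries by the labels, called LY-1 to LY-5 and NC-1 to NC-5 as in the table. The series text counts 4 samples per group, and separate cultures are stated nowhere, so p-values measure only the spread between these libraries, which may be technical.

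RBM proteins share an RNA recognition motif and little else: some are parts of the spliceosome, others assemble ribosomes in the nucleolus, mark exon junctions, direct RNA to decay or guide m6A methylation. The hnRNPs coat nascent transcripts in the nucleus, and many of them repress or promote exons by binding short sequence runs nearby. Several hnRNPs also act in messenger RNA stability, nuclear export and attachment of RNA to chromatin, and many are among the abundant proteins of dividing cells.

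Values are TPM as deposited, a transcript abundance scaled for gene length and for the library total. A lower value can mean less RNA of the gene per cell or fewer cells that express the gene. Because TPM is relative, a lower value can also mean more RNA of other genes. These cannot be told apart in a bulk library. A gene was tested if it reached 1 TPM in at least 5 of the 10 libraries. Tests are limma on log2(TPM + 1), so log2 fold changes (LY over DMSO, ± SE) understate the change of low genes. A gene "rose" or "fell" if its p, adjusted by Benjamini-Hochberg over all 11663 tested genes, was under 0.05. The depth of the libraries is unknown.

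Library NC-2 stood apart: mitochondrially encoded genes took 37.5% of its TPM, against 12.2% to 14.1% in the other 4 controls and 6.43% to 14.9% in LY. TPM of a library are shares of 1 total, so a larger mitochondrial share leaves less for all other genes. Of the markers of the labelled cells, KRT8, KRT18 and VIM were abundant and KRT7 was near 0 in both groups. KRT19 was at 15.8 to 24.6 TPM in LY and 123 to 166 in DMSO. The 5 markers summed to 5356 to 6033 TPM in LY and 6356 to 6771 in DMSO. All 5 endocrine and 5 of 7 acinar markers were at 0 in every library, and the acinar sum ran from 0.691 to 1.34 TPM in LY and from 1.30 to 3.17 in DMSO. The sum of 6 leukocyte markers was 131 to 232 TPM in LY and 35.0 to 47.7 in DMSO and was nearly all CD68, with 3 markers at 0 throughout and PTPRC, which marks leukocytes in general, at 0 in all LY libraries. The 6 fibroblast markers summed to 27.7 to 37.7 TPM in LY and 68.9 to 115 in DMSO, mostly COL1A2, with DCN and LUM at 0. Endothelial markers summed to 2.74 to 3.32 TPM in LY and 0.0988 to 0.535 in DMSO, with PECAM1 and KDR at 0. The part of these shifts in the results below was not tested.

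Of the 44 RBM genes 38 were tested. Of these 22 rose, 2 fell and 14 did not pass. RBM47, among the 2 that fell, passed the filter on low values through its DMSO libraries alone. Among all tested genes 39.8% rose and 24.9% fell, and for the RBM genes these shares were 57.9% and 5.26%. The median log2 fold change was 0.51 over the tested RBM genes and 0.17 over all tested genes. In 10 RBM genes the rise was at least 2-fold. LY values lay wholly above DMSO values in 18 RBM genes and wholly below in 2, where 32.7% and 16.7% of all tested genes did so. Of the 26 hnRNP genes 22 were tested; 8 rose, 2 fell and 12 did not pass, shares of 36.4% and 9.09%. Their median was 0.23 as deposited and changed sign to -0.04 with upper-quartile scaling, where the median of all tested genes was -0.08. The groups did not overlap in 8 hnRNP genes that were higher and 1 that was lower in LY. As deposited, the share of hnRNP genes that rose was close to that of all genes, and the share that fell was below that of all genes in both name groups.

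The deposited scale matters for these splits. Scaling to the median ratio of the tested genes moved the median of all genes from 0.17 to 0.012, quantile normalization moved it to 0.051 and upper-quartile scaling to -0.080. All tested genes then split into 33.0% higher and 33.1% lower, 34.8% and 31.7%, and 28.7% and 37.5%. RBM genes then rose and fell in 20 and 4, 20 and 3, and 18 and 6 cases, and hnRNP genes in 5 and 6, 5 and 7, and 4 and 8. After removal of the mitochondrial genes the numbers were 20 and 4 for RBM and 5 and 6 for hnRNP. Of all tested genes 33.2% then rose and 32.7% fell. The same 18 RBM genes rose as deposited, in each of these 4 rescalings and with each library left out in turn, and so did 4 hnRNP genes (HNRNPLL, HNRNPUL1, HNRNPR and HNRNPH3). RBM47, RBM43, HNRNPH1 and HNRNPA2B1 fell in all of them, but RBM47 was tested only because of its DMSO libraries. The share of all tested genes that kept a call through all these settings was not computed. Without NC-2 alone, 10 hnRNP genes rose and 6 fell, and for RBM genes the counts stayed at 22 and 2. Of all tested genes 39.5% rose and 31.0% fell without NC-2.

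**Figure D1:**
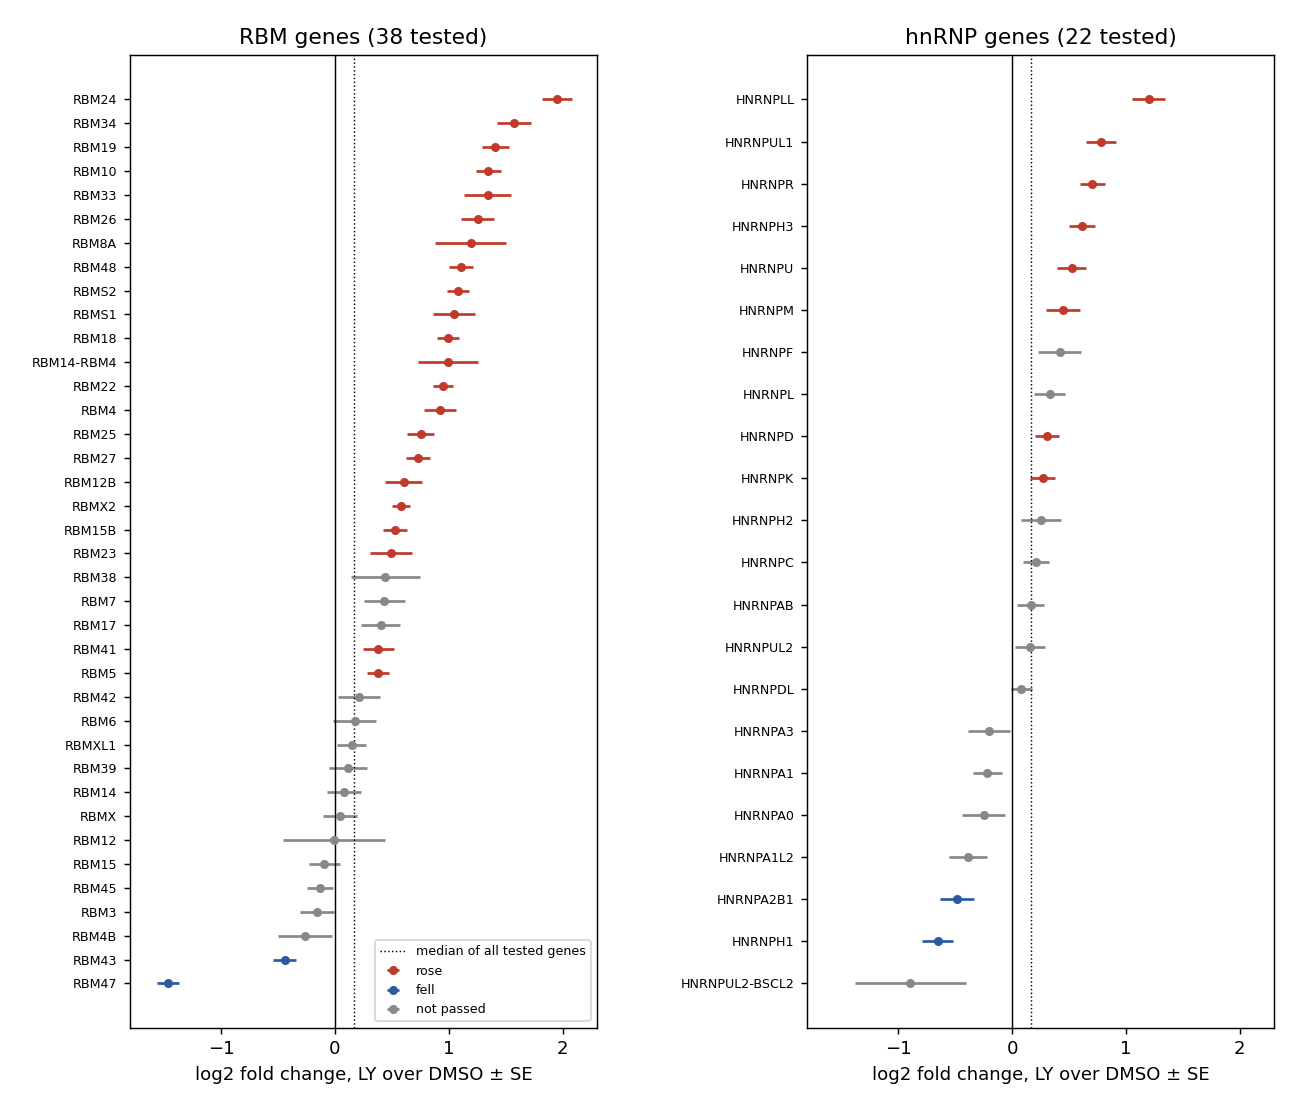
Log2 fold change (LY over DMSO) ± SE of the limma fit for the 38 tested RBM genes and the 22 tested hnRNP genes, 5 libraries per group, in order of size. Red genes rose, blue genes fell, grey genes did not pass, and the dotted line is the median of all tested genes (0.17); RBM24 is highest at 1.95 and RBM47 lowest at -1.47.

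Summed over members, the RBM genes held 3344 ± 233 TPM in LY (SD, n = 5; 3083 to 3664) and 2277 ± 162 in DMSO (2036 to 2433), and the 2 ranges did not overlap. Rescaled without the mitochondrial genes the RBM sums were 3452 to 3941 in LY and 2578 to 3258 in DMSO, still apart. The hnRNP genes held 10218 ± 718 TPM in LY and 9577 ± 745 in DMSO, with overlapping ranges. On the mitochondria-free scale their order turned, with means of 11278 in LY and 11798 in DMSO, also overlapping.

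**Figure D2:**
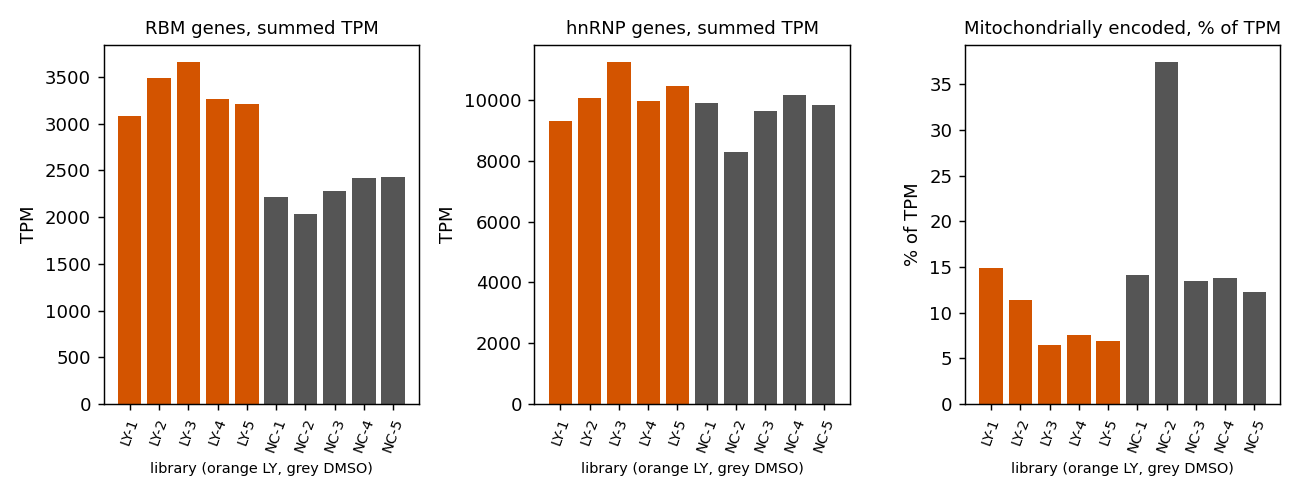
Summed TPM of the RBM genes (left), summed TPM of the hnRNP genes (middle) and percent of TPM in mitochondrially encoded genes (right), 1 bar per library (orange LY, grey DMSO). All 5 LY bars of the RBM sum are at 3083 or more and all DMSO bars at 2433 or less, the hnRNP sums of the groups overlap, and NC-2 stands out at 37.5% mitochondrial.

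The largest rise was in RBM24 (ENSG00000112183, chromosome 6, 17281346 to 17293875, build hg38), which stabilises messenger RNA and activates exons in muscle. It was at 21.9, 14.0, 22.8, 18.7 and 17.3 TPM in LY-1 to LY-5, against 4.22, 3.58, 3.85, 4.36 and 4.43 TPM in NC-1 to NC-5. Every LY library was above every control, and NC-2 was the lowest control. The log2 fold change was 1.95 ± 0.13 (adjusted p = 1.81e-07, limma). Its closest relative RBM38, which stabilises the CDKN1A transcript, was at 58.8 TPM in LY and 43.0 in DMSO and did not pass (adjusted p = 0.220, limma). Without LY-3, its lowest LY library at 26.9 TPM, it did, at 0.70 with an adjusted p of 0.029 (limma). With median-ratio, quantile and upper-quartile scaling RBM38 did not pass (adjusted p = 0.44, 0.59 and 0.62, limma).

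Both nucleolar members rose, RBM34 2.97-fold and RBM19 2.65-fold on the log2(TPM + 1) scale. RBM34 (ENSG00000188739, chromosome 1, 235131183 to 235161457), a nucleolar protein, was at 159.7, 159, 153, 169 and 146 TPM in LY-1 to LY-5, against 55.8, 60.6, 65.5, 34.9 and 50.4 TPM in NC-1 to NC-5. LY libraries were tightly grouped far above the controls, whose lowest was NC-4, and the log2 fold change was 1.57 ± 0.15 (adjusted p = 2.41e-06, limma). It lies on the strand of ARID4B and overlaps it over 29824 bases, and ARID4B also rose, by 0.67. RBM19 (ENSG00000122965, chromosome 12, 113816738 to 113966371), needed to process the precursor of ribosomal RNA, was at 77.7, 93.1, 99.2, 88.1 and 99.95 TPM in LY-1 to LY-5, against 38.5, 25.9, 35.7, 34.1 and 36.2 TPM in NC-1 to NC-5. The groups did not overlap; LY-1 was the lowest treated library and NC-2 the lowest control. RBM19 rose by 1.41 ± 0.12 (adjusted p = 9.85e-07, limma).

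The role groups, the nucleolar one included, were made after the data were seen, and their counts stand beside 39.8% risen and 24.9% fallen among all tested genes. Of 10 genes of the major spliceosome 6 rose, 0 fell and 4 did not pass, and of the 6 rises those of RBM23 and RBM5 were lost in rescalings. RBM10 (ENSG00000182872, chromosome X, 47144869 to 47186813), which represses exons from within the early spliceosome, was at 252, 306, 251, 265 and 311 TPM in LY-1 to LY-5, against 120.5, 86.8, 116, 112 and 107 TPM in NC-1 to NC-5. LY-2 and LY-5 were highest, and no LY library reached down to a control. The log2 fold change of RBM10 was 1.35 ± 0.11 (adjusted p = 8.92e-07, limma). RBM22, which contacts the catalytic RNA centre, went from 79.3 ± 5.48 to 154 ± 11.6 TPM (SD, n = 5; 0.95 ± 0.09). RBM25, a U1-associated regulator of BCL2L1 exon choice, went from 82.8 ± 10.7 to 140.4 ± 18.3 TPM (0.75 ± 0.12). RBMX2, part of the activated spliceosome, rose by 0.58 ± 0.08. Smaller rises were those of RBM5 (0.38 ± 0.10), an OCRE-domain relative of RBM10, and RBM23 (0.49 ± 0.18). RBM23 lost its call in all 4 rescalings (adjusted p = 0.223 to 0.392, limma), by the exact Wilcoxon test (adjusted p = 0.195), and without LY-3, LY-4, LY-5, NC-1, NC-3 or NC-5 (adjusted p = 0.0639 to 0.0837, limma); NC-2 was its highest control at 34.9 TPM. RBM5 lost it with quantile and upper-quartile scaling (0.248 and 0.262). RBM6 at 0.17 ± 0.19, RBM17 at 0.40 ± 0.17, RBM39 at 0.11 ± 0.17 and RBM42 at 0.21 ± 0.19 did not pass. RBM17, known as the 3′ splice site factor SPF45, had an adjusted p of 0.0547 (limma) and passed without LY-1, LY-5 or NC-5 (0.0345 to 0.0453). It did not pass with median-ratio, quantile or upper-quartile scaling (adjusted p = 0.23, 0.52 and 0.49, limma).

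The 2 members of the minor spliceosome, which removes the rare U12-type introns, both rose. RBM48, which pairs with ARMC7 there, went from 9.78 ± 0.955 to 22.2 ± 2.28 TPM (SD, n = 5; 1.11 ± 0.10, adjusted p = 2.07e-06, limma), with no overlap. ARMC7 went the other way, from 20.2 to 9.42 TPM (-1.01 ± 0.13). RBM41, which binds the U12 and U6atac RNAs, rose by 0.38 ± 0.14 with overlapping groups; NC-2 was its highest control at 8.20 TPM. Its call was lost without LY-1, LY-3, NC-1, NC-4 or NC-5 (adjusted p = 0.0557 to 0.0708, limma), by the exact Wilcoxon test (0.0524), and in 3 of the 4 rescalings, quantile normalization being the exception (adjusted p = 0.242 to 0.478, limma).

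Of 4 members that mark exon junctions or feed the nuclear exosome, 3 rose. RBM26 (ENSG00000139746, chromosome 13, 79311824 to 79406477), which links polyadenylated nuclear RNA to the exosome, was at 99.0, 85.7, 86.0, 81.7 and 71.6 TPM in LY-1 to LY-5, against 31.1, 51.4, 32.2, 33.5 and 29.7 TPM in NC-1 to NC-5. NC-2 was well above the other 4 controls but below the lowest LY library. RBM26 rose by 1.25 ± 0.15 (adjusted p = 1.48e-05, limma), and its paralog RBM27 by 0.73 ± 0.11. RBM8A (ENSG00000265241, chromosome 1, 145917714 to 145927678), the exon junction core subunit also called Y14, was at 211, 464, 457, 192 and 237 TPM in LY-1 to LY-5, against 87.8, 197, 84.9, 163 and 134 TPM in NC-1 to NC-5. LY-2 and LY-3 stood far above the other 3 treated libraries, and the groups overlapped, since NC-2 exceeded LY-4. RBM8A rose by 1.19 ± 0.31 (adjusted p = 0.00499, limma). RBM7, the RNA-binding subunit of the exosome targeting complex, did not pass at 0.43 ± 0.18 (adjusted p = 0.0515, limma). It did without LY-2, LY-5, NC-4 or NC-5 (adjusted p = 0.0349 to 0.0413, limma). With median-ratio, quantile and upper-quartile scaling RBM7 did not pass (adjusted p = 0.13, 0.11 and 0.33, limma).

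The m6A members differed among themselves. RBM33 (ENSG00000184863, chromosome 7, 155644451 to 155781485), which binds the demethylase ALKBH5, was at 145, 146, 96.2, 91.5 and 81.1 TPM in LY-1 to LY-5, against 41.2, 57.0, 29.01, 41.3 and 47.9 TPM in NC-1 to NC-5. LY-1 and LY-2, the 2 LY libraries with the highest mitochondrial share, were highest, and all LY libraries exceeded all controls. RBM33 rose by 1.34 ± 0.21 (adjusted p = 1.20e-04, limma). RBM15 and RBM15B recruit the methylating complex to its targets. RBM15B rose from 33.5 ± 4.49 to 48.5 ± 2.79 TPM (SD, n = 5), a log2 fold change of 0.53 ± 0.11. RBM15 was at 15.4 TPM in LY and 16.7 in DMSO and did not pass as deposited. With upper-quartile scaling RBM15 fell (-0.35, adjusted p = 0.0136, limma), as with median-ratio scaling without NC-2 (-0.29, adjusted p = 0.0360, limma). It did not pass with median-ratio or quantile scaling of all libraries (adjusted p = 0.0532 and 0.0954, limma).

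**Figure D3:**
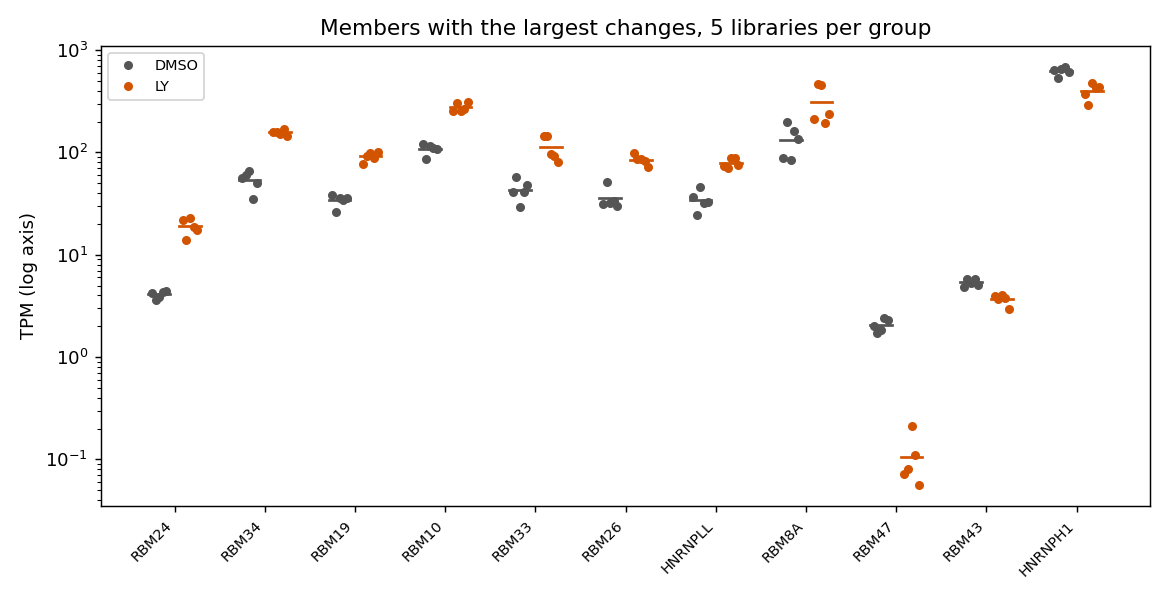
TPM on a log axis in each of 5 LY (orange) and 5 DMSO (grey) libraries for 8 members with large increases and for RBM47, RBM43 and HNRNPH1, which fell; horizontal lines are group means. Points of the groups are apart for every gene shown except RBM8A.

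Of 12 regulators of splicing, stability and translation, 4 rose (RBM24, RBM4, RBMS1 and RBMS2), 1 fell (RBM47) and 7 did not pass. RBMS1 and RBMS2, which bind single-stranded nucleic acid and messenger RNA 3′ ends, went from 11.5 to 24.9 TPM (1.05 ± 0.19) and from 10.4 to 23.0 TPM (1.08 ± 0.10). NC-2 was the highest control for RBMS1 at 16.5 TPM, below the lowest LY library at 19.2. RBM4, which acts in splicing and in stress-time translation, went from 96.3 to 181 TPM (0.92 ± 0.14). The read-through gene RBM14-RBM4 rose by 0.99 ± 0.26 and shares 7853 bases with RBM4 and 10722 with RBM14. RBM14, a paraspeckle protein, was at 0.08 ± 0.15 and did not pass. How the counting divided reads among these 3 genes is not given, so their values are uncertain. RBM3, the cold-inducible member and the most abundant RBM gene with 432 TPM in LY and 485 in DMSO, did not pass as deposited (-0.16 ± 0.15). All 4 rescalings gave it a fall, of -0.33 with median-ratio scaling (adjusted p = 0.0173, limma). RBMX, which helps sister chromatid cohesion besides splicing, was at 233 and 226 TPM.

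RBM47 and RBM43 fell. RBM47 (ENSG00000163694, chromosome 4, 40423267 to 40630875), an epithelial splicing factor and cofactor of APOBEC1, was at 0.0720, 0.0798, 0.213, 0.110 and 0.0560 TPM in LY-1 to LY-5, against 2.03, 1.71, 1.86, 2.40 and 2.32 TPM in NC-1 to NC-5. Every LY library was near 0 and every control above 1 TPM, so it passed the filter on low values through the DMSO group alone, and it is described here because of its values. The fitted change was -1.47 ± 0.10 on the log2(TPM + 1) scale, and the LY mean was 0.0513 times the DMSO mean. With the filter at 5 TPM neither RBM47 nor RBM43 was tested. RBM43 (ENSG00000184898, chromosome 2, 151247940 to 151261879), which is little studied, was at 3.97, 3.73, 4.06, 3.79 and 2.96 TPM in LY-1 to LY-5, against 4.87, 5.79, 5.32, 5.83 and 5.07 TPM in NC-1 to NC-5. All LY values were below all controls, and RBM43 fell by 0.44 ± 0.10 (adjusted p = 0.00217, limma). Of the other little studied members, RBM18 rose by 0.995 ± 0.10 and RBM12B by 0.60 ± 0.16 with overlapping groups, a call lost with upper-quartile scaling (adjusted p = 0.0501, limma). RBM12 did not pass and spread widely (6.19 to 30.5 TPM in LY and 6.498 to 34.8 in DMSO). It lies within CPNE1 on the same strand over 16032 bases.

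Germ-line, brain and heart members were at or near 0. RBM11, RBM46 and RBMXL3 were listed at 0 in all 10 libraries, and RBM20, RBM44 and RBMXL2 never reached 1 TPM. RBM44, known from sperm cells, was at 0 to 0.0917 TPM in LY and 0.0763 to 0.402 in DMSO. HNRNPCL1 to HNRNPCL4, retrogene copies of HNRNPC, stayed under 0.1 TPM and were not tested.

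The 6 most abundant members are all hnRNPs, and they moved in different directions. HNRNPA2B1 (ENSG00000122566, chromosome 7, 26173057 to 26201529), which represses exons and reads m6A marks, was at 1325, 1546, 1944, 1696 and 1747 TPM in LY-1 to LY-5, against 2513, 1677, 2467, 2485 and 2453 TPM in NC-1 to NC-5. All LY libraries were below the 4 controls other than NC-2, and NC-2 lay within the LY range. HNRNPA2B1 fell by 0.48 ± 0.15 (adjusted p = 0.0140, limma), a call lost by the exact Wilcoxon test (adjusted p = 0.0848). HNRNPK (ENSG00000165119, chromosome 9, 83968083 to 83980616), which binds C-rich runs, was at 924, 944, 1169, 1015 and 992 TPM in LY-1 to LY-5, against 831, 699, 890.3, 891 and 869.7 TPM in NC-1 to NC-5. LY-3 was highest and NC-2 lowest, and the groups did not overlap. Its rise of 0.27 ± 0.11 had an adjusted p of 0.0471 (limma) and was lost in all 4 rescalings (adjusted p = 0.202 to 0.996, limma; the change was 0.00055 with upper-quartile scaling). It was also lost with no filter on low values (0.0532) and without LY-2, LY-3, LY-4, LY-5, NC-1, NC-3, NC-4 or NC-5 (adjusted p = 0.0537 to 0.108, limma).

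HNRNPC (ENSG00000092199, chromosome 14, 21209136 to 21269494), which binds uridine runs and guards Alu exons, was at 873, 1113, 785, 853 and 843 TPM in LY-1 to LY-5, against 763, 852, 713, 734 and 783 TPM in NC-1 to NC-5. LY-2 was far above the others, and the groups overlapped, since NC-2, the highest control, exceeded LY-3 and LY-5. The change of 0.21 ± 0.11 did not pass (adjusted p = 0.127, limma). Without NC-2 it did, at 0.25 with an adjusted p of 0.0489 (limma). It did not pass with median-ratio, quantile or upper-quartile scaling, at 0.04, 0.04 and -0.06. HNRNPU (ENSG00000153187, chromosome 1, 244840638 to 244864560), also called SAF-A, which ties RNA to chromatin, was at 753, 739.5, 1035, 767 and 699 TPM in LY-1 to LY-5, against 599.8, 494, 503, 625 and 536 TPM in NC-1 to NC-5. LY-3 stood highest, and the lowest LY library was above the highest control. HNRNPU rose by 0.52 ± 0.13 (adjusted p = 0.00319, limma), a call lost with upper-quartile scaling (0.0701).

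HNRNPAB (ENSG00000197451, chromosome 5, 178204507 to 178211163), a relative of HNRNPD, was at 578, 633, 749, 743 and 718 TPM in LY-1 to LY-5, against 650.4, 493, 597, 646 and 665 TPM in NC-1 to NC-5. The ranges overlapped, with NC-2 lowest, and 0.17 ± 0.12 did not pass (adjusted p = 0.240, limma). HNRNPA1 (ENSG00000135486, chromosome 12, 54280193 to 54287088), a repressor of exons and a shuttling export factor, was at 477, 568, 664, 613 and 664 TPM in LY-1 to LY-5, against 693, 585, 641, 795 and 753 TPM in NC-1 to NC-5. The ranges overlapped, with LY-1 and LY-2 lowest, and -0.22 ± 0.13 did not pass (adjusted p = 0.150, limma). Without NC-2 HNRNPA1 fell by 0.28 (adjusted p = 0.0450, limma).

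**Figure D4:**
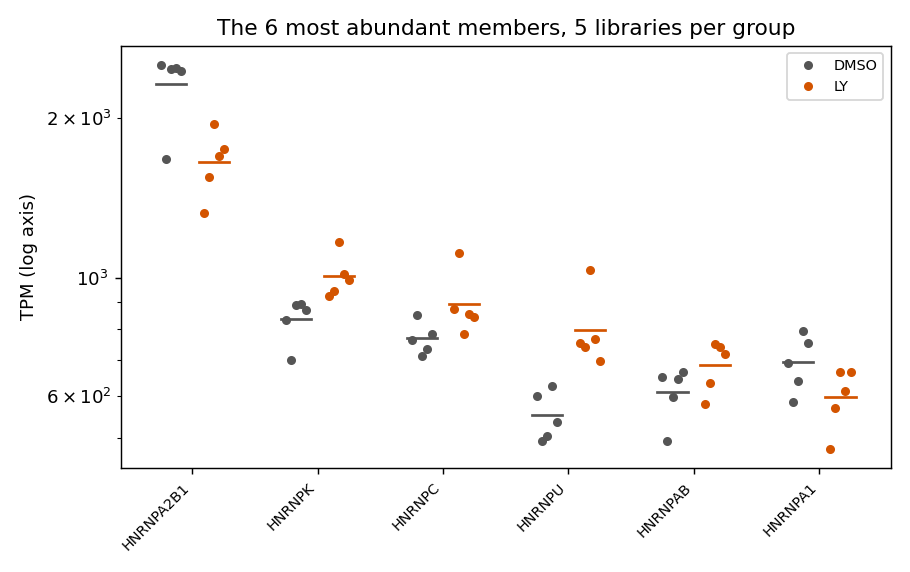
TPM on a log axis in each of 5 LY (orange) and 5 DMSO (grey) libraries for the 6 members of highest mean TPM; horizontal lines are group means. HNRNPA2B1 is lower in LY apart from NC-2, HNRNPK and HNRNPU are higher in LY, and HNRNPC, HNRNPAB and HNRNPA1 overlap.

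In the A-type genes all 5 log2 fold changes were below 0, from -0.48 in HNRNPA2B1 to -0.20 in HNRNPA3. HNRNPA2B1 alone passed as deposited. HNRNPA0, HNRNPA1, HNRNPA1L2 and HNRNPA3 fell in each of the 4 rescalings, for example HNRNPA0 at -0.42 and HNRNPA3 at -0.37 with median-ratio scaling (adjusted p = 0.0190 and 0.0313, limma). Without NC-2, HNRNPA0 (log2 fold change -0.43) and HNRNPA1L2 (-0.55) fell (adjusted p = 0.00846 and 5.49e-04, limma). HNRNPA3 did not pass without NC-2 (-0.33, adjusted p = 0.0838, limma). HNRNPA1L2 is a retrogene with a coding sequence identical to that of HNRNPA1 in 98.4% of bases, so its reads cannot safely be told from those of HNRNPA1.

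The F and H genes, which bind runs of G, moved in both directions. HNRNPH1 (ENSG00000169045, chromosome 5, 179614178 to 179634784) was at 372, 291, 482, 422 and 440.0 TPM in LY-1 to LY-5, against 638, 539, 658, 686 and 605 TPM in NC-1 to NC-5. LY-2 was lowest, and the highest LY library was below the lowest control, NC-2. HNRNPH1 fell by 0.65 ± 0.14 (adjusted p = 0.00129, limma). HNRNPH3 rose from 338 ± 37.6 to 517 ± 59.3 TPM (SD, n = 5; 0.61 ± 0.11). HNRNPF at 0.42 ± 0.19 and HNRNPH2 at 0.25 ± 0.17 did not pass. HNRNPF did without LY-1 or NC-4, its highest control (0.53 each, adjusted p = 0.0281 and 0.0286, limma). With median-ratio, quantile and upper-quartile scaling HNRNPF did not pass (adjusted p = 0.27, 0.43 and 0.51, limma).

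The 2 L genes, whose proteins bind CA repeats, were both at higher TPM in every LY library. HNRNPLL (ENSG00000143889, chromosome 2, 38561978 to 38603586), known for switching CD45 exons in T cells, was at 74.2, 71.1, 87.6, 88.5 and 75.3 TPM in LY-1 to LY-5, against 36.5, 24.7, 46.4, 32.3 and 32.9 TPM in NC-1 to NC-5. The groups were far apart, and NC-2 was lowest. HNRNPLL rose by 1.20 ± 0.15 (adjusted p = 1.98e-05, limma), the largest hnRNP rise. HNRNPL went from 425 to 527 TPM without overlap and missed the threshold (0.33 ± 0.14, adjusted p = 0.0538, limma). It passed without NC-2 (0.20, adjusted p = 0.0295) and without NC-5, and by the exact Wilcoxon test (adjusted p = 0.0161). With median-ratio, quantile and upper-quartile scaling HNRNPL was at 0.16, 0.09 and 0.06 and did not pass (adjusted p = 0.15, 0.30 and 0.58, limma).

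Of the remaining hnRNPs, HNRNPUL1, a relative of HNRNPU that acts in the DNA damage response, rose from 372 ± 43.4 to 644 ± 104 TPM (SD, n = 5; 0.78 ± 0.13). It overlaps TGFB1 on the opposite strand over 6012 bases, and TGFB1 rose by 1.21; whether the counting used strand is not given. HNRNPR, best studied in motor neurons, rose by 0.70 ± 0.11. HNRNPM, which works against ESRP1 at epithelial exons, rose by 0.45 ± 0.15 with overlapping groups and lost its call in all 4 rescalings (adjusted p = 0.215 to 0.417, limma) and without LY-2, LY-5 or NC-3 (0.0531 to 0.0550). HNRNPD, also called AUF1, which promotes decay of AU-rich transcripts, rose by 0.31 ± 0.11; its call was lost in all 4 rescalings (adjusted p = 0.326 to 0.799, limma; 0.04 with upper-quartile scaling) and without LY-1, LY-3, LY-4, NC-4 or NC-5 (adjusted p = 0.0523 to 0.0622, limma). HNRNPDL at 0.08 ± 0.09 and HNRNPUL2 at 0.16 ± 0.13 did not pass; HNRNPDL fell with quantile (-0.18) and upper-quartile scaling (-0.19). The read-through gene HNRNPUL2-BSCL2 was at 4.59 TPM in LY and 9.27 in DMSO and did not pass. Without NC-2, where it was at 1.98 TPM, it fell by 1.29 (adjusted p = 0.0114, limma). HNRNPUL2-BSCL2 shares 14755 bases with HNRNPUL2 and 19571 with BSCL2 on the same strand, and BSCL2 fell by 1.64. How reads were divided among these genes is not given, so the value of HNRNPUL2-BSCL2 is uncertain.

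Related members were compared within each library, because a ratio of 2 genes of 1 library does not depend on how the library is scaled. The 22 pairs were chosen after the data were seen, so their ratios are described without a test. In 9 of the 22 pairs the LY and DMSO ratios did not overlap; among all 1770 pairs of tested members 37.6% did not, which is a similar share. The ratio of HNRNPH1 to HNRNPH3 turned round, at 1.85 in DMSO and 0.769 in LY (log2 difference -1.27 ± 0.11). HNRNPH1 to HNRNPH2, which match in 87.6% of coding bases, went from 7.76 to 4.12 (-0.91 ± 0.13), and HNRNPF to HNRNPH1 from 0.351 to 0.740 (1.08 ± 0.23). RBM4 to RBM4B, also alike in 87.6% of bases, went from 3.89 to 8.94 (1.20 ± 0.25), although the 2 genes overlap on opposite strands over 3377 bases. RBM24 gained on RBM38 (1.74 ± 0.41) and RBM26 on RBM27 (0.53 ± 0.09). RBM10 gained on RBM5, the ratio of RBM5 to RBM10 going from 0.512 to 0.261. RBM15B gained on RBM15 and HNRNPLL on HNRNPL.

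Where the ratios overlapped, RBMX to RBMXL1 (97.3% of coding bases alike) differed by -0.12 ± 0.14, RBMS1 to RBMS2 by -0.04 ± 0.20, and HNRNPA1 to HNRNPA3 by -0.01 ± 0.11. HNRNPA1 to HNRNPA2B1 differed by 0.27 ± 0.08, and without NC-2 by 0.32.

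**Figure D5:**
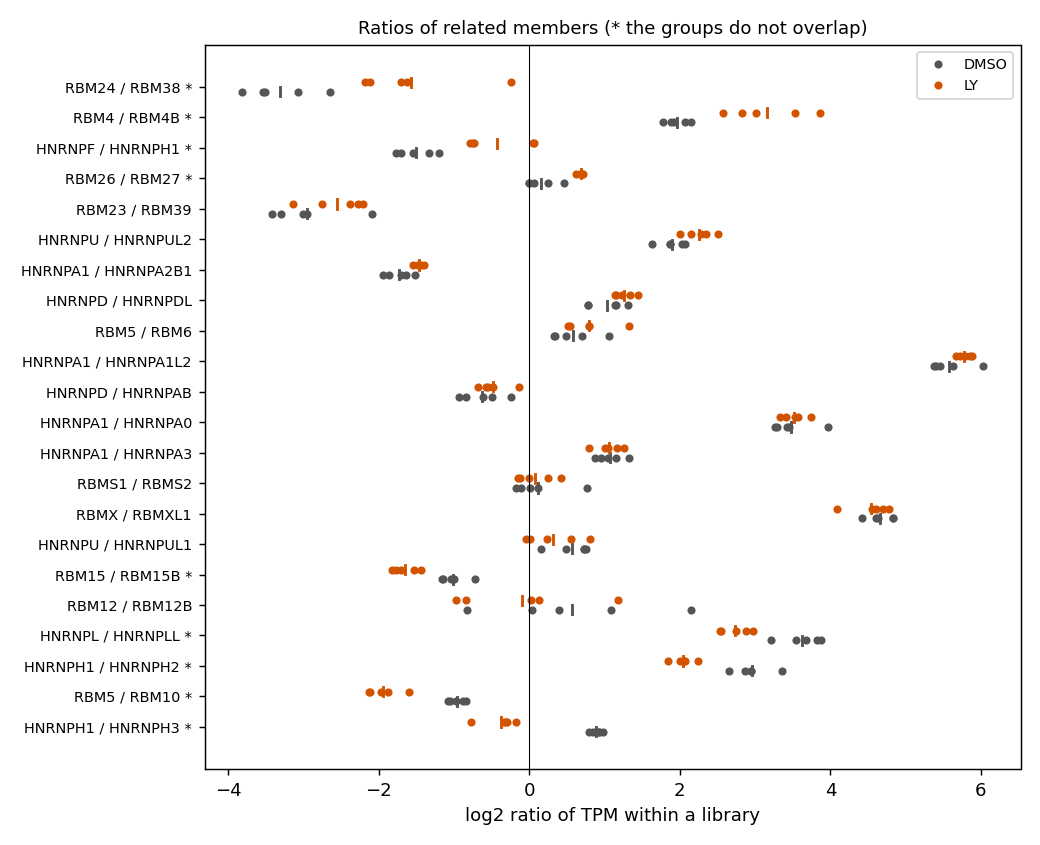
Log2 ratio of the TPM of 2 related members within each library (points; orange LY, grey DMSO) with group means (short bars), for 22 pairs in order of the LY less DMSO difference. In the 9 pairs marked with an asterisk the groups do not overlap, with RBM24 to RBM38 at the top (difference 1.74) and HNRNPH1 to HNRNPH3 at the bottom (-1.27).

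Genes that work with these proteins were read from 11 lists. Of 16 tested hnRNPs that carry other symbols, 9 rose, 1 fell and 6 did not pass (median 0.43). In each of the 3 rescalings computed for the lists 7 rose and 3 fell, with a median of 0.16 under upper-quartile scaling. DAZAP1, a splicing activator, went from 225 to 469 TPM (1.05 ± 0.09), FUBP1, a binder of the MYC upstream element, from 144 to 274 TPM (0.92 ± 0.10), and PCBP4, a poly(C) binder, fell from 93.6 to 55.1 TPM (-0.73 ± 0.15). SR proteins and their kinases, which often oppose hnRNPs at exons, split 9 up, 4 down and 6 not passing of 19 (median 0.15). With median-ratio scaling they split 5 up and 6 down, and with quantile or upper-quartile scaling 5 up and 8 down, with medians below 0. The CLK1 and CLK3 kinases rose by 1.47 ± 0.16 and 1.21 ± 0.14, and SRSF7 fell by 1.11 ± 0.11. Of 25 other regulators of alternative splicing, 13 rose, 3 fell and 9 did not pass (median 0.42; 8 up and 6 down with upper-quartile scaling). NOVA2, a neuronal splicing factor, was at 1.74 TPM in DMSO and 0.115 in LY; it is 1 of the 3 falls, but it reached 1 TPM in DMSO libraries alone and so passed the filter through them. MBNL2 rose by 1.28 ± 0.19.

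Partners of single members are given next, with medians above 0 as deposited and in these 3 rescalings, except for the minor spliceosome. In the m6A writer complex 5 of 7 rose and 0 fell (4 and 0 with upper-quartile scaling). CBLL1 (1.89 ± 0.39) and ZC3H13 (0.85 ± 0.15), both accessory subunits, rose most. CBLL1 was at 139.8 TPM in LY-1 and 21.0 to 48.6 in the other LY libraries, against 9.56 to 16.7 in DMSO. Of 9 m6A readers and erasers, 5 rose and 0 fell (3 and 1 in each of the 3 rescalings), with IGF2BP2, which protects marked transcripts, at 1.21 ± 0.12 and the nuclear reader YTHDC1 at 1.05 ± 0.12; ALKBH5, the demethylase bound by RBM33, was at -0.18 ± 0.13 and did not pass. In the exon junction complex 6 of 9 rose and 1 fell (4 and 1 with quantile or upper-quartile scaling). CASC3 was at 0.94 ± 0.10, MAGOHB, an RBM8A partner, at 0.74 ± 0.13, and the export adaptor ALYREF at -0.29 ± 0.10. MAGOH, another RBM8A partner and more abundant than MAGOHB, was at 0.40 ± 0.13. In nuclear exosome targeting 6 of 7 rose and 0 fell (4 and 0 with upper-quartile scaling), with the RBM7 partners ZCCHC8 at 1.06 ± 0.08 and MTREX at 1.001 ± 0.09.

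In the minor spliceosome 4 of 11 rose and 2 fell (median 0.062, but -0.095 with median-ratio and -0.19 with upper-quartile scaling). ZRSR2, which reads its 3′ splice sites, rose by 1.37 ± 0.08, and ARMC7 fell as given above. Of 8 paraspeckle genes 4 rose and 1 fell, with PSPC1 at 1.26 ± 0.09, SFPQ at 1.05 ± 0.09 and the polyadenylation factor NUDT21 at -0.58 ± 0.10. Of 8 scaffold attachment genes around HNRNPU 6 rose and 0 fell (6 and 2 with upper-quartile scaling), with ZNF326 at 1.49 ± 0.10 and SLTM at 1.07 ± 0.14. Among 8 genes of hnRNP import and arginine methylation 7 rose and 0 fell (5 and 0 with upper-quartile scaling), with the methyltransferase PRMT3 at 1.33 ± 0.09 and the importin TNPO2 at 1.01 ± 0.14. Against the 39.8% of all tested genes that rose, these counts are a description and no set was tested.

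Several members share a start region with a gene on the other strand. RBM18 and MRRF, a mitochondrial ribosome recycling factor, both rose (0.995 and 0.95). HNRNPA1 was not called while CBX5, the heterochromatin protein HP1α, fell by 0.90, and HNRNPA2B1 fell while CBX3 was at -0.29 and did not pass. HNRNPDL was not called while ENOPH1, an enzyme of methionine salvage, rose by 0.71. Other members overlap a neighbour in sequence, and their values are uncertain to that extent. RBM5 and RBM6 share 11138 bases on 1 strand, and HNRNPH2 shares 4003 bases on its strand with the read-through gene RPL36A-HNRNPH2, which rose by 0.33. On opposite strands HNRNPA2B1 shares 14069 bases with NFE2L3, which fell by 0.80, and HNRNPU 4420 bases with COX20, which rose by 0.44.

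Promoter windows from RefSeq (build GRCh38.p14), 250 bases before to 50 after the start, were matched for 64 of 70 members and searched on both strands for 9 short motifs. They were the TATA box (TATAAA), the CCAAT box (CCAAT), the GC box (GGGCGG), the E-box (CACGTG), the cyclic AMP element (TGACGTCA), a palindrome (CTCGCGAG), the NRF1 core (GCGCATGC), the ETS core (CCGGAAG) and the YY1 core (AAGATGGC). A few windows are printed because they belong to members that rose or fell and hold different motifs; capitals mark every match on either strand, no 2 matches overlap, and each reads 5′ to 3′ on the gene's strand. RBM19 (chr12:113966276-113966575, minus strand) and RBM26 (chr13:79406206-79406505, minus strand) rose and carry AAGATGGC, the core bound by YY1, RBM26 as its reverse complement. HNRNPUL1 (chr19:41262307-41262606, plus strand) rose and carries CTCGCGAG and CACGTG. HNRNPA2B1 (chr7:26200697-26200996, minus strand) and RBM47 (chr4:40630545-40630844, minus strand) fell, and each holds CCAAT as its reverse complement ATTGG. The window of RBM19, which rose, holds ATTGG too.
RBM19: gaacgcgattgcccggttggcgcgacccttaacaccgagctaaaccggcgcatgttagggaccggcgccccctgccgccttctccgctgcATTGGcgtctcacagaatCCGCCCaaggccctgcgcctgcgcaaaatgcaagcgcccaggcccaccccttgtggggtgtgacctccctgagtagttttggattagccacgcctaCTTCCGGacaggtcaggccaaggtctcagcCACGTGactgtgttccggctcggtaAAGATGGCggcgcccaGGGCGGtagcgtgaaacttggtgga
RBM26: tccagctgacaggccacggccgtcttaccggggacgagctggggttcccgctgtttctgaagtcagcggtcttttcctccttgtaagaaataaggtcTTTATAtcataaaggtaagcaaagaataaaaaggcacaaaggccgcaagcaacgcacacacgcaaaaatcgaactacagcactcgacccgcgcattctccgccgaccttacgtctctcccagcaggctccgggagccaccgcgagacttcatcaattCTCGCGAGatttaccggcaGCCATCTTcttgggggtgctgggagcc
HNRNPUL1: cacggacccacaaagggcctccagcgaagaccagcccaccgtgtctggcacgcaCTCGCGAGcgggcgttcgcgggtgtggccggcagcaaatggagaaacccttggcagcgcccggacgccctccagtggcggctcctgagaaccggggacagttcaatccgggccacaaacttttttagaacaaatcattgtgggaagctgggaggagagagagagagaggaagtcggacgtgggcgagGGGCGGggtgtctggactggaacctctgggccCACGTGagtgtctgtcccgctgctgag
HNRNPA2B1: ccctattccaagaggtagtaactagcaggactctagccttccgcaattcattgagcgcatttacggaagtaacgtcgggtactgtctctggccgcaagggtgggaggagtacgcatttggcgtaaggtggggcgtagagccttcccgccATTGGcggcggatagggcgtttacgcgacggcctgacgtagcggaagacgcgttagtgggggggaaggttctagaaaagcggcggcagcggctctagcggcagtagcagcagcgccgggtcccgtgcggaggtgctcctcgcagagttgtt
RBM47: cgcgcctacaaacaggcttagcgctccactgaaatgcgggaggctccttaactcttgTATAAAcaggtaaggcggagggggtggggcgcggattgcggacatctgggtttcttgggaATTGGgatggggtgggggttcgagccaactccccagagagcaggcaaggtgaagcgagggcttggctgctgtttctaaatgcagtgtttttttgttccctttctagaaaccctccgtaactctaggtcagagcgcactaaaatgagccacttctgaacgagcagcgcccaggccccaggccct

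The CCAAT box was in 20 of 34 RBM windows (58.8%) and 14 of 21 hnRNP windows (66.7%) of tested members, and in 36.9% of the 9442 windows of all tested genes. The read-through genes RBM14-RBM4 and HNRNPUL2-BSCL2 start close to RBM14 and HNRNPUL2. Their windows were counted separately, and all of these have the CCAAT box. By call, 14 of 28 windows of members that rose had it, and 18 of 24 of those that did not pass. CACGTG, the E-box, was in 7 of 21 hnRNP windows (33.3%), 3 of 34 RBM windows (8.82%) and 10.5% of all. AAGATGGC was in 5 of 28 windows of members that rose (RBM8A, RBM15B, RBM19, RBM25 and RBM26), in 0 of 24 that did not pass, in 5.78% of all windows and in 6.81% of those of all genes that rose. CTCGCGAG was in 3 of 28 windows of members that rose (HNRNPK, HNRNPUL1 and RBM26) and in 2.27% of all. TATAAA was in 4 RBM and 3 hnRNP windows (5.07% of all), GGGCGG in 18 and 17 (72.3%), TGACGTCA in 3 and 0 (3.44%), GCGCATGC in 3 and 0 (5.85%) and CCGGAAG in 8 and 3 (20.6%). A match is a run of letters and not a bound site.

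Transcript structure was compared with the change across genes, as a description. Over 59 tested members with a gene model, Spearman's correlation of the log2 fold change with the number of exons was 0.33, and over 11575 tested genes it was -0.016. With coding length it was 0.17 over the same 59 members, 0.59 in 21 hnRNP genes, 0.021 in 38 RBM genes and 0.059 over all genes. These are 2 of 7 features compared, and the hnRNP value for coding length was the largest. Fold changes of all genes come from the same 10 libraries, and genes are not independent replicates. The 3′ UTR was a median of 1245 bases long in the 30 members that rose, 1709 in the 4 that fell and 681 in the 25 that did not pass. Over all tested genes it was 1242 in those that rose, 790 in those that fell and 841 in those that did not pass.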

How the data were processed

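RNA sequencing of PANC-1 cells gave 1 table of gene values. Its values are TPM as the authors deposited them, 1 column per library, with no read totals. Per the labels, RNA was total RNA and libraries were made with an mRNA kit; the series text names Trizol and the labels a column kit for extraction. The submitters' processing notes list builds GRCm38, mm10 and hg38 without their roles. Not given in the sources used here: the aligner, the counter and the use of strand.

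Columns LY-1 to LY-5 match sample titles. Columns NC-1 to NC-5 match none and stand for the DMSO group without sample numbers. Positions and gene models came from GENCODE release 29, and coding identity is from global alignment of its coding sequences. limma 3.58.1 (R 4.3.3) was fitted with a mean-variance trend to log2(TPM + 1) of genes at 1 TPM or more in 5 or more libraries, with the group as the only term, and tested on simulated data. Other settings tried were pseudocounts, filters, 4 rescalings, other moderation, an exact Wilcoxon test over 252 assignments (smallest p 0.00794) and leaving out libraries. Pair ratios, role groups and a fit without the 3 libraries NC-2, LY-1, LY-2 were chosen after seeing the data.

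Members and lists were chosen with earlier results of these data known. Values per library are given for the 8 largest rises, the largest falls (3 met the rule) among called members with a mean of 5 TPM or more in the higher group, and the 6 most abundant members. From each list come the 2 changed genes of largest change and the largest opposite one. RBM47 and genes beside members were named after their values were seen. Protein identity was planned, and coding identity was used. Depth is unknown, so no counting interval is given. HNRNPA1, HNRNPCL3, RBM12B, RBM39, RBM43 and RBM48 had no matched window.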

Additional observations from a re-analysis of the deposited data

Results flagged for a closer look

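Within a group of 5 libraries, a value stood apart when its gap to the nearest other library, divided by the range of the group, exceeded 0.71. Of 126 groups of values tested, 19 did so, and chance flags about 1 in 20 groups. Library NC-2 accounts for most of them. It was lowest in its group for HNRNPA0 (ratio 0.819), HNRNPA2B1 (0.927), HNRNPA3 (0.885), HNRNPL (0.726), RBM15B (0.829), RBM42 (0.725) and RBMX (0.862), and for the summed TPM of the hnRNP genes (0.723). NC-2 was highest for RBM26 (0.827), RBM41 (0.729) and RBMS1 (0.763), and for the mitochondrial percent (0.925).

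In the LY group LY-3 was highest for HNRNPDL (0.718), HNRNPU (0.797), RBM39 (0.785) and RBM5 (0.747), and LY-2 for HNRNPC (0.732). Among the controls NC-4 was highest for HNRNPF (0.799) and NC-5 for RBM18 (0.795).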

How the results depend on the processing

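No paired analysis was possible because the control columns are named NC, a name in no sample title, so their numbers cannot be tied to sample numbers. As deposited, 22 RBM genes rose and 2 fell (median log2 fold change 0.51), and 8 hnRNP genes rose and 2 fell (0.23). With median-ratio scaling 4 RBM genes fell (median 0.35), and 5 hnRNP genes rose and 6 fell (0.061). With quantile normalization the RBM median was 0.31, and 5 hnRNP genes rose and 7 fell (0.027). With upper-quartile scaling 6 RBM genes fell (0.25), and 4 hnRNP genes rose and 8 fell, with the median reversed to -0.038. The median of all tested genes was then -0.080, below that of the hnRNP genes. Without mitochondrial genes 4 RBM genes fell (0.36), and 5 hnRNP genes rose and 6 fell (0.074). HNRNPDL reversed with quantile normalization (-0.18) and upper-quartile scaling (-0.19), where its fall passed. With a minimum of 5 TPM, 22 RBM genes rose and 0 fell, since fewer genes were tested. Of all genes tested there 42.3% rose and 22.4% fell. The exact Wilcoxon test called 20 RBM rises and 2 falls, and 9 hnRNP rises and 1 fall. By that test 36.1% of all tested genes rose and 19.1% fell.

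Leaving out 1 library at a time gave 20 to 23 RBM rises with 2 falls each, and 6 to 10 hnRNP rises with 2 falls, except 6 falls without NC-2. Of all tested genes 37.7% to 39.5% rose and 22.6% to 31.0% fell in these fits. Median-ratio scaling of the 9 libraries other than NC-2 gave 5 RBM falls (median 0.41) and 7 hnRNP falls (0.047), and 35.6% of all tested genes fell. Without NC-2, LY-1 and LY-2, 11 hnRNP genes rose and 5 fell. Of all tested genes 40.52% rose and 28.96% fell in that fit. The cause of these differences was not tested. Non-overlapping pair ratios numbered 9 to 11 when 1 library was left out. Leaving out a library cannot make separate ratios overlap, so this number could only stay at 9 or rise. Pseudocounts of 0.1 and 0.5, limma without trend and robust moderation each kept the counts of 22, 2, 8 and 2. Depth, which is unknown, limits members near 1 TPM such as RBM47.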
